A study of Mus musculus with 5 samples.

Results

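Immature thymocytes are the T cell precursors that form in the thymus. They assemble their T cell receptor genes with the recombinase Rag1/Rag2 and the DNA polymerase Dntt, and in the cortex they carry both co-receptors, CD4 and CD8, at once. A burst of division follows a productive beta chain; the alpha locus then rearranges in resting cells, which deletes the delta genes that lie inside it. Mature T cells outside the thymus have shut off the recombinase and as a rule keep 1 co-receptor. Rag1, Rag2, Dntt, Ptcra (the alpha-chain stand-in of the pre-receptor), Arpp21 and Aqp11 served here as stage genes.

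The thymocyte-like cells were chosen by molecule counts. A cell qualified when it held at least 1 molecule of the 6 stage genes, at least 1 of Cd4 and at least 1 of Cd8a and Cd8b1 together. Mitochondrial genes could make up at most 25% of its molecules. C1qa, C1qb and C1qc (macrophage genes) had to stay under 30, and Cd79a and Cd79b (B cell genes) under 10, per 10000 molecules. 93 of the 1656 cells that met the mitochondrial limit qualified, of 1743 deposited. Since the rule reads measured transcripts, the levels of its own genes describe the selection and support nothing.

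The cells come from 1 of the 5 samples of the series: live CD45+ cells (CD45 marks blood-derived cells) sorted from digested, perfused aortic arches of female mice and captured on a BD Rhapsody cartridge, which gives each cell a barcode and each RNA molecule an identifier. One pool was labelled wild-type (C57BL/6J) and the other Saa3-/- (C57BL/6N-Saa3tm1.1(KOMP)Vlcg/MbpMmucd), Saa3 being the gene of serum amyloid A3. Mice of both genotypes, called littermates in the design text although the strain labels name different substrains, are labelled 12 weeks old. All received 1 intraperitoneal dose of an adeno-associated viral vector and then a Western diet for 18 weeks to induce atherosclerosis. The number of mice in each pool is not given, so each genotype is 1 sample. No test between genotypes was possible, and intervals below are exact 95% intervals that cover counting error only.

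The pools held 833 and 823 cells within the limit, with a median of 6415 molecules per cell in the pool labelled wild-type and 4698 in the pool labelled Saa3-/-. Saa3, the targeted gene, was not absent under the Saa3-/- label. Over all cells it stood at 148 molecules per 1000000 of the same cells (CPM) under the wild-type label and at 242 under the Saa3-/- label. There 1 cell held 799 of its 1268 molecules. The higher sum under that label thus rested on 1 cell, and no order of the pools is read from it. No cell barcode occurred in both pools. Of 2401 putative cells in the tag-call table, 647 were undetermined and 11 were called multiplets. In the thymocyte-like cells Saa3 was near background, with 13 molecules in 9 of 93 cells. Xist was found in 79 of the 93, as in a female sample.

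The name was checked on genes outside the rule. Satb1, a chromatin organiser of thymocytes, was present in 92 of the 93 cells, and Themis, a signalling adaptor needed for selection in the thymus, in 87. Ccr9, the receptor that retains precursors in the thymic cortex, was present in 69 cells, and Endou, a ribonuclease gene with thymocyte expression, in 74. Among the 395 other CD3 cells (at least 2 molecules of Cd3d, Cd3e and Cd3g together, the same limits, not members) the same 4 genes were found in 204, 140, 31 and 23 cells. The name thymocyte-like was kept on this basis. Markers of the thymic stroma did not: Foxn1, Psmb11, Prss16, Krt5, Krt8, Aire and Dll4 had 0 molecules in the 93 cells, and the other 2 of that list of 9, Ccl25 and Epcam, had 15 molecules in 12 cells together. Of the 4 early B cell markers, Igll1 and Vpreb3 were at 0, Vpreb1 had 1 molecule and Ebf1 had 17 molecules in 10 of the 93 cells, against 95 in 46 of the 395 other CD3 cells.

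Most cells passed the rule with room to spare on the stage genes and with little on Cd4. The stage genes gave a median of 9 molecules per cell and a highest value of 73. Only 6 cells passed on 1 molecule, while 70 had at least 5. Cd4 gave a median of 3 and a maximum of 22, and 29 cells had a single Cd4 molecule. Cd8a and Cd8b1 gave a median of 7, with 8 cells at 1. Just outside the rule lay 38 cells with stage genes and Cd8 but no Cd4, 21 with stage genes and Cd4 but no Cd8, 59 with stage genes alone, and 21 with both co-receptors but no stage gene. The first 3 sets had a median of 1 stage molecule each, against 9 in the members. The median hides a minority at levels like those of the members: 12 of the 38, 1 of the 21 and 7 of the 59 had at least 5 stage molecules, with highest values of 26, 12 and 23. Of the 12 and the 7, 9 and 6 cells are among the other CD3 cells.

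Stage gene molecules also occurred in cells of other types, and whether free RNA supplied them was not tested. A stage gene molecule was found in 56 of 381 cells above the C1q limit (14.7%, 11.3 to 18.7), 16 of 152 cells above the Cd79 limit (10.5%, 6.14 to 16.5) and 48 of 395 other CD3 cells (12.2%, 9.10 to 15.8). Median depths were 8007, 3382.5 and 4414 molecules, against 4732 in the members. A single stage molecule was thus common in cells of other types. The share in the other CD3 cells is not one of scattered molecules alone, since it includes the cells with at least 5 stage molecules named above. Of these other CD3 cells, 1 held 71 molecules of the 7 thymocyte markers. All 3 molecule criteria together were met by 3 of the 381 (0.787%) and 1 of the 152 (0.658%). Of the other CD3 cells, 14 of 395 held both co-receptors, 90 held Cd4 alone and 120 held Cd8 alone.

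**Figure D1:**
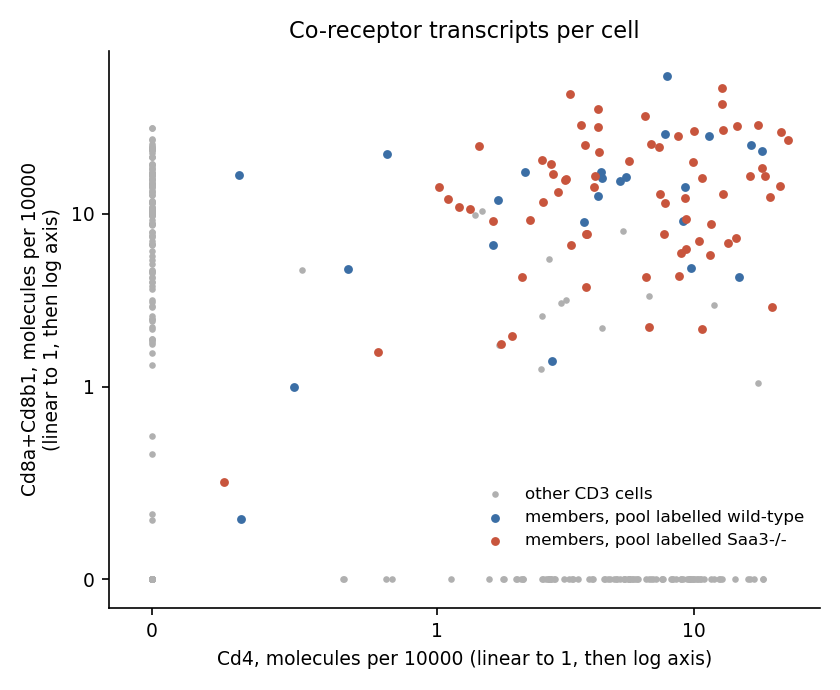
Cd4 (horizontal axis) against Cd8a+Cd8b1 (vertical axis), each in molecules per 10000 molecules of the cell, on axes that are linear to 1 and logarithmic above. Each point is 1 cell: 24 thymocyte-like cells of the pool labelled wild-type, 69 of the pool labelled Saa3-/- and the 395 other CD3 cells, most of which lie on an axis because they lack one co-receptor or both; the rule itself keeps members off the axes.

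5 of the 93 cells stood apart and are named before the results because they weigh on every summed level. These 5 had fewer than 10 molecules of Trbc1 and Trbc2 (the constant segments of the receptor beta chain) per 10000, a split added after the values were seen. They held 17.4% of all molecules of the members: 29.1% under the wild-type label (3 cells) and 10.9% under the Saa3-/- label (2 cells). One wild-type-labelled cell held 934 molecules of Lyz1, 540 of Lyz2 and 753 of Cd74, genes of myeloid and antigen-presenting cells. Another held 323 of Lyz2 and 495 of Cd74, and the third held 117 of Myh11, a smooth muscle myosin. Under the Saa3-/- label, 1 cell held 184 molecules of Dcn, a fibroblast proteoglycan, and 204 of Myoc, and the other held 88 of Ccl5 and no CD3 molecule. Whether these were 2 cells under 1 barcode was not tested, and no doublet caller was run. The 93 cells without these 5 are called the 88 cells below. Among the 88, 1 wild-type-labelled cell was also deep, with 32755 of the 161912 molecules of its pool there. It held 55 molecules of Cd8a and Cd8b1 and 33 of Trac, but 1 stage molecule, 1 of Cd4 and 1 of Satb1. Its type was not tested, and it was kept, so it weighs on the sums of the 88 cells.

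The pool labelled Saa3-/- held the larger share of thymocyte-like cells. They were 24 of 833 cells under the wild-type label (2.88%, 1.85 to 4.26) and 69 of 823 under the Saa3-/- label (8.38%, 6.58 to 10.5), a ratio of 2.91 (1.81 to 4.84). Those intervals did not overlap. Of CD3 cells, members plus others, they made up 11.0% (24 of 218) and 25.6% (69 of 270). Without the 5 cells low in Trbc the shares were 2.52% and 8.14%. With every cell thinned to 2000 molecules they were 1.23% (10 of 815) and 6.02% (48 of 797), with 18 and 26 shallower cells left out. With 1 pool per genotype, genotype, mouse and dissection cannot be told apart.

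**Figure D2:**
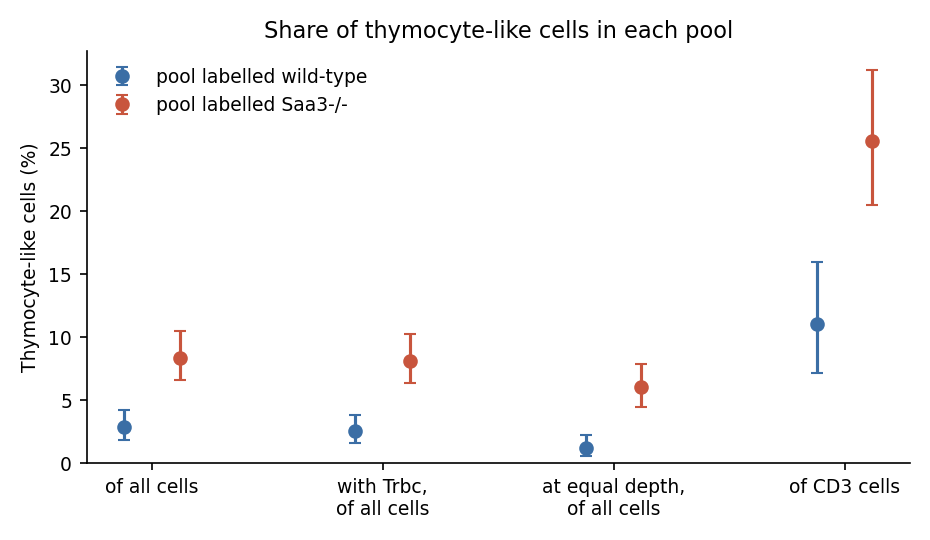
Share of thymocyte-like cells (vertical axis, percent, from 0) in each pool, with exact 95% intervals for counting error: of all cells, with the 5 cells low in Trbc left out, at an equal depth of 2000 molecules, and of CD3 cells. The pool labelled Saa3-/- is higher in each of the 4 pairs, and the pair over all cells is 2.88% and 8.38%.

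Set against the other CD3 cells, the thymocyte-like cells had more transcripts of cortical thymocyte genes and, through their dividing cells, of cell cycle genes, and fewer of maturation, MHC class I and effector genes. Molecules were summed over the cells of each group and compared as log2 ratios of CPM with 0.5 molecule added. A gene was counted as higher or lower when the log2 ratio reached 1 in size, a 2-fold difference, with the same sign in both pools. Of 8119 genes with at least 50 molecules, 638 were higher (7.86%) and 692 were lower (8.52%), and the median gene stood at 0.10. With median-of-ratios scaling the split was 517 higher and 812 lower, and in the 88 cells it was 845 and 1133. Without the other CD3 cells that had 5 or more stage molecules, an alternative chosen after seeing the data, it was 705 and 749. The other CD3 cells were also limited to those with at least 10 CD3, Trbc and Trdc molecules per 10000. That alternative, also chosen after seeing the data, gave 595 higher and 535 lower of 7061 genes, so the balance of the 2 directions depended on the cells compared.

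Of the cell cycle genes, 18 of 22 measured S phase genes (median 1.47) and 21 of 23 measured G2 and M phase genes (median 2.57) were higher. Their higher sums lay in the dividing (cycling) members, those with at least 5 molecules of Mki67, Top2a and Stmn1 together. The 25 S phase genes summed to 6219 CPM in cycling members, 654 in resting members and 1346 in the other CD3 cells. The 25 G2 and M phase genes summed to 6976, 765 and 957 CPM. Resting members were thus below the other CD3 cells, which hold dividing cells of their own, on both lists.

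Of the 25 cortical thymocyte genes outside the rule, 16 were higher and 1, Itm2a, was lower, with a median of 1.63. The highest was Endou at 4.19 (3.75 to 4.67). Its 245 molecules lay in 74 cells, against 49 molecules in 23 other CD3 cells. Without the other CD3 cells that had 5 or more stage molecules it stood at 5.30. Ly6d, a small surface protein of lymphoid precursors, stood at 3.86 (3.39 to 4.39), but 1 cell held 42 of its 172 molecules. Ccr9 stood at 3.59 (3.22 to 3.98), 398 CPM against 32.9. Myb, a transcription factor of dividing precursors, stood at 2.63 and Cd24a, a surface protein of immature cells, at 2.27. Themis stood at 2.35 (2.16 to 2.54), with 874 CPM against 172. Tcf7, Tcf12 and Bcl11b, transcription factors of T lineage commitment, stood at 1.99, 1.74 and 1.14. Tox stood at -0.07 and Id3 at 0.21, both within 2-fold.

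Receptor genes divided by chain. Trbc2 stood at 1.76 (1.68 to 1.84), 3741 CPM against 1102, and Trbc1 at 1.56. Trac, the alpha constant segment, stood at -0.46 (-0.66 to -0.28), 418 CPM against 578. The 3 CD3 chains lay within 2-fold: Cd3d at -0.07, Cd3e at 0.18 and Cd3g at -0.43. Of the 17 receptor signalling genes, Lck, the kinase bound to CD4 and CD8, at 1.24, and Cd247, the zeta chain, at 1.08, were the only others past 2-fold. Trac gave 8.80 molecules per 100 Trbc molecules in the thymocyte-like cells, against 40.0 in the other CD3 cells. Beta-chain V segments were found in 51 of 93 cells and came from 18 of the 21 Trbv genes in the tables, so no single one dominated: the leading segment, Trbv12-1, had 14 molecules in 7 cells. Alpha V segments were found in 11 cells. Reads that near-identical V segments share could be split between them by the authors' counting, so single segments are uncertain.

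Genes of the gamma-delta T cell lineage were low. Of the 5 measured, 4 were lower, with Trdc (the delta constant segment) at -2.07, Sox13 at -3.94, and Il23r and Blk. Trdv4 is the delta V segment that led in the other CD3 cells, with 236 of 244 Trdv molecules, while the thymocyte-like cells had 8 Trdv molecules in all. Gamma V segments gave 1 molecule in the 93 cells and 57 in the other CD3 cells.

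End joining closes the breaks that the recombinase makes. Of 7 measured genes of end joining and of recombinase partners, 4 were higher. Xrcc6, which encodes the DNA-end binding protein Ku70, stood at 2.85 (2.45 to 3.27), with 154 molecules in 57 cells. Lig4, the ligase of that pathway, stood at 2.38. The other 2 were not end joining genes: Hmgb1 and Hmgb2, DNA-bending proteins that aid the recombinase, stood at 1.56 and 1.61. When dividing cells were left out of both groups, Xrcc6 stood at 3.05, Hmgb1 at 0.45 and Hmgb2 at -0.13. The whole list of 9 summed to 5407 CPM in cycling members, 1050 in resting members and 1094 in the other CD3 cells, so the higher sum was that of the cycling cells.

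Genes of earlier and later T cell stages were low. Of 8 measured genes of the double-negative stage, none was higher and 3 were lower: Il2ra, the interleukin 2 receptor alpha chain, at -3.92, Kit at -2.16 and Dtx1, a Notch target, at -1.16. Notch1 stood at 0.09. Of 16 selection and maturation genes, none was higher and 8 were lower. Il7r, the interleukin 7 receptor, stood at -3.40 (40.7 CPM against 439), S1pr1, which lets T cells leave the thymus, at -3.25, and Ccr7, the homing receptor of mature T cells, at -2.59. Cd69 at -0.52 and Nr4a1, induced by receptor signalling, at 0.22 stayed within 2-fold.

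Survival genes moved in both directions. Bcl2, which protects mature lymphocytes from apoptosis, stood at -1.71 and Bcl2a1b at -3.06. Bcl2l11 (Bim) at 1.28 and Bbc3 (Puma) at 1.16, which promote apoptosis, were higher. The other 8 of the 12 lay within 2-fold or without a shared sign, among them Mcl1 at 0.26 and Bcl2l1, the survival gene known from double-positive cells, at 0.73.

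MHC class I transcripts were low, with 4 of 7 genes lower. H2-K1, a class I heavy chain, stood at -1.89 (580 CPM against 2158), B2m, its light chain, at -1.31 and Nlrc5, the activator of these genes, at -2.14. Of 10 interferon response genes, 5 were lower, with Ifit3 at -3.44 and Isg15 at -1.77, and none was higher. Of 11 genes induced by tissue dissociation, 1, Hspa1b, was lower and none was higher. Of 17 effector and memory genes, 13 were lower and none was higher. Ccl5, a chemokine of memory and cytotoxic cells, stood at -2.50, Cxcr6, a tissue-homing receptor, at -3.61, and Gzmb, a cytotoxic protease, at -3.73. Ifng, the interferon gamma gene, had 0 molecules in the members and 65 in 37 other CD3 cells, which makes it at least 5.91-fold lower with the members set at 3 molecules.

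The counts of several lists, like those of all genes, turned on the 5 cells low in Trbc. Only members were left out by this split, and the other CD3 cells were not split. Of all 7966 genes compared with the 88 cells, 845 were higher and 1133 lower, against 638 and 692 of 8119 with the 93. No result about a list is read from a change that all genes shared. In the 88 cells 17 of 25 cortical thymocyte genes were higher, as were 21 of 22 S phase and 22 of 23 G2 and M phase genes. Lower were 5 of 8 double-negative stage genes, 9 of 16 maturation genes, 3 of 12 survival genes, 7 of 10 interferon response genes and 14 of 17 effector and memory genes. Of the dissociation genes 3 of 11 were lower (Hspa1b, Atf3 and Dusp1), and that list's median moved from -0.16 to -0.88. Counts for the receptor signalling, gamma-delta, end joining and MHC class I lists were the same in the 88 cells. Of the 4 smooth muscle markers 4 were lower there and none in the 93 cells, and of the 5 fibroblast markers 5 and 4.

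**Figure D3:**
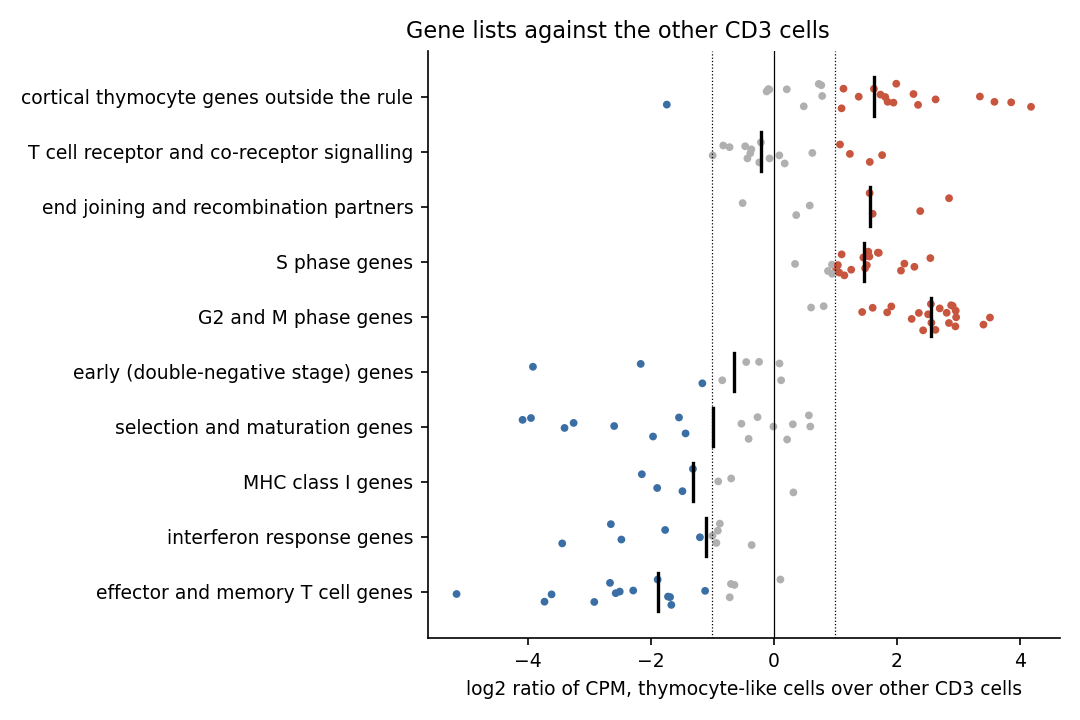
Log2 ratio of CPM, thymocyte-like cells over other CD3 cells (horizontal axis), for each measured gene of 10 lists. Each point is 1 gene, red where at least 2-fold higher and blue where at least 2-fold lower with the same sign in both pools, grey otherwise, spread vertically for visibility; black bars are list medians, dotted lines mark 2-fold, and the medians run from 2.57 for the G2 and M phase genes to -1.89 for the effector and memory genes.

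Outside the lists, the largest positive ratios among named genes were those of Syt13, a synaptotagmin, at 4.37 (138 molecules in 61 cells, against 24 in 11), and Chrna9, an acetylcholine receptor subunit, at 4.26 (49 molecules in 35 cells, against 9 in 9). Colq, which anchors acetylcholinesterase, stood at 3.35, with 48 molecules in 31 cells, and Dgkeos at 3.42. No cell held more than 11 molecules of Syt13 or 4 of Chrna9. At the other end, Ret, Mmp25, Krt83, Kcnk1, Yes1, Ttn, Ifi208 and Aqp3 had 0 molecules in the thymocyte-like cells. With these set at 3 molecules, Ret was at least 9.45-fold and Aqp3 at least 5.36-fold lower. Col10a1 stood at -5.23, and 1 other CD3 cell held 330 of its 344 molecules.

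The markers of other cell types in these sums are given for the 93 cells, the 88 cells and the other CD3 cells in turn. The 7 macrophage markers summed to 2593, 1121 and 1700 CPM. Of this list the first 3, C1qa, C1qb and C1qc, were limited by the rule. The 5 fibroblast markers summed to 1560, 1138 and 4195 CPM, and the 4 smooth muscle markers to 1252, 588 and 1755 CPM. The 4 NK markers summed to 68.9, 56.9 and 192 CPM, with 27 of the members' 44 molecules in 1 cell and Ncr1 at 0 in members and other CD3 cells alike. The 5 B cell markers, of which the rule limits Cd79a and Cd79b, summed to 53.3, 53.1 and 44.8 CPM, with 34 molecules in 26 of the 93 cells and Ms4a1 at 0. Their part in the gene results was not tested. In the 88 cells 1978 of 7966 genes passed 2-fold, and 1227 of the 1330 counted above were among them.

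Dividing cells made up a large share of the thymocyte-like cells. A cell was called cycling with at least 5 molecules of Mki67, Top2a and Stmn1 together, genes of the nuclear proliferation antigen, a topoisomerase and a microtubule regulator of dividing cells. 34 of 93 qualified (36.6%, 26.8 to 47.2): 10 of 24 under the wild-type label (41.7%, 22.1 to 63.4) and 24 of 69 under the Saa3-/- label (34.8%, 23.7 to 47.2). Both intervals overlap widely. In the other CD3 cells the share was 20 of 395 (5.06%, 3.12 to 7.71). The sum had 2 ranges. 26 cells had 0, 33 had 1 to 4 and 6 had 5 to 9, while 28 had at least 17, and none lay in between. 5 cells lay within 1 molecule of the limit. A limit of 10 molecules, inside the gap, gave 28 of 93 (30.1%). By pool this was 10 of 24 under the wild-type label (41.7%, 22.1 to 63.4) and 18 of 69 under the Saa3-/- label (26.1%, 16.3 to 38.1). The 6 cells at 5 to 9 molecules were thus all under the Saa3-/- label, and the intervals still overlap.

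Cycling cells were deeper, with a median of 7774.5 molecules against 3451 in resting ones, and a sum of raw molecules grows with depth. Thinned to 2000 molecules, where the rule itself keeps fewer cells, 13 of 58 were cycling (22.4%, 12.5 to 35.3). The limit stayed at 5 molecules there, so fewer cells could reach it by construction. A limit of 5 per 10000 molecules gave 41 of 93 (44.1%, 33.8 to 54.8). At least 1 molecule of Mki67 and Top2a together, without Stmn1, gave 42 of 93 (45.2%, 34.8 to 55.8). None of the 5 cells low in Trbc was cycling.

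**Figure D4:**
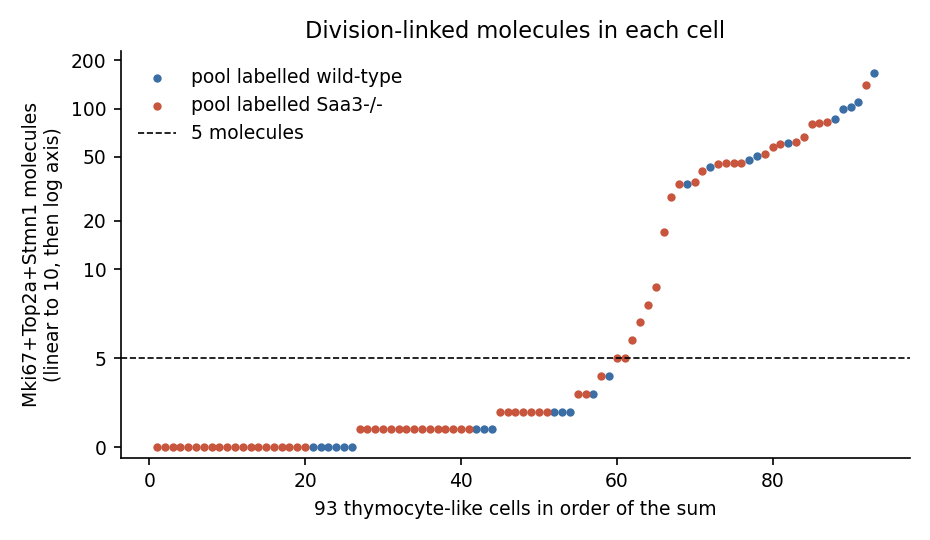
Sum of Mki67, Top2a and Stmn1 molecules (vertical axis, linear to 10 and logarithmic above) in each of the 93 thymocyte-like cells, in order of the sum (horizontal axis), coloured by pool. The dashed line is the limit of 5 molecules; 59 cells lie below it and no cell lies between 9 and 17 molecules.

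Since the split used cell cycle genes, what follows describes the 2 classes and supports nothing about division itself. Of 2910 genes with at least 50 molecules, 286 were higher in cycling cells (9.83%) and 365 were lower (12.5%), with a median gene at -0.04. All 17 measured S phase genes, with a median of 3.29, and all 18 measured G2 and M phase genes, with a median of 4.27, were higher. Pclaf, a clamp-associated factor of DNA replication, had 251 molecules in 25 of the 34 cycling cells and 0 in the 59 resting ones, at least 85.6-fold higher. Birc5 (survivin) had 125 molecules and 0, Hells, a chromatin remodeller, 62 and 0, Ccnb1 (cyclin B1) 51 and 0, and Bub1, a spindle checkpoint kinase, 50 and 0. Ccna2 (cyclin A2) had 108 molecules and 1, and Mcm3, part of the replicative helicase, 85 and 1. Aspm, Ncapg2 and Atad5 completed the 10 highest, each at 0 in resting cells.

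The 10 lowest ratios, in contrast, rested mostly on single cells. Of the molecules in resting cells, Myoc (204 of 204), Il17b (87 of 87), Omd (172 of 175), Sox9 (55 of 56), Lcn2 (86 of 92), Col8a1 (81 of 87) and Csf1 (74 of 83) had most in 1 cell, as did Lyz1 (934 of 942). Thbs1 had 39 of its 94 in 1 cell. In the 88 cells none of the 10 kept 50 molecules, and 543 of 2392 genes passed 2-fold, of which 348 were among the 651 counted above.

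Promoters of the cell cycle genes show shared letters. The motifs searched on both strands were CCAAT (the NF-Y box), TTTGAA and its variant form TTTAAA (the cell cycle homology region, CHR), TTTCCCGC, TTTGGCGC, TTTCGCGC or TTTGCCGC (E2F type), and CAGCTG together with a second E-box, CAGGTG. The window was the 150 bases before each start in the RefSeq promoter table for GRCm38.p6. CCAAT occurred in 16 of 21 matched G2 and M phase promoters (76.2%) and 13 of 23 S phase promoters (56.5%), against 25.3% of 27025 promoters. CHR letters occurred in 8 of the 21 (38.1%), against 14.9%, and E2F letters in 5 of the 23 (21.7%), against 1.26%. For the 18 matched cortical thymocyte genes, an E-box occurred in 3 (16.7%), against 17.7%. A match is a description of letters and no evidence of binding. 4 windows follow, 2 of genes found mainly in the cycling class and 2 of stage genes. Capitals mark CCAAT (or ATTGG, its other strand) and CHR in the first pair, and E-boxes in the second. No capital motifs overlap.
Ccnb1, chr13:100786487-100786636, minus strand: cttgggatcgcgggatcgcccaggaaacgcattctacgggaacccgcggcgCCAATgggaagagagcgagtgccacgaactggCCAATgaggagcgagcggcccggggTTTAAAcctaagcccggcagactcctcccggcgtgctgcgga
Cdk1, chr10:69352913-69353062, minus strand: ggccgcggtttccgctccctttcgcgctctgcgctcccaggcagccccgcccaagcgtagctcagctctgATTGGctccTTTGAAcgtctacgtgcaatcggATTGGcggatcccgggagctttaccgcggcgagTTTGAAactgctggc
Rag1, chr2:101649533-101649682, minus strand: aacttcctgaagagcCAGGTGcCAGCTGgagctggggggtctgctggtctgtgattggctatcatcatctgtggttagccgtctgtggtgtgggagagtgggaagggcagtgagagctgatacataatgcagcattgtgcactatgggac
Ptcra, chr17:46763713-46763862, minus strand: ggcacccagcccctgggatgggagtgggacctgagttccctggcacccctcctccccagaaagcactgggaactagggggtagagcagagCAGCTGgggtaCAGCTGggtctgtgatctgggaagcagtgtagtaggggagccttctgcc
Ccnb1 has 3 marked matches and Cdk1, the kinase that cyclin B1 activates, has 4. Cdk1 had 38 molecules in 18 of the 93 cells and stood at 1.91 against the other CD3 cells. Rag1 and Ptcra each have 2 E-boxes but differed in level: Rag1 was found in 72 of the 93 cells and Ptcra in 6.

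Levels of the stage genes, which the rule used, are given as a description for the 88 cells, 34 cycling and 54 resting, and none of them was counted as higher or lower. Rag1 was at 520 CPM in cycling cells (443 to 606) and 680 in resting ones (574 to 801), and the intervals overlap. Rag2, on the opposite strand beside it, was at 120 (85.2 to 165) and 14.2 (2.92 to 41.4). Rag2 was below the minimum of 50 molecules, with 38 in 11 cycling cells, 13 of them in 1 cell, and 3 in 3 resting cells. Ptcra, also below it, had 10 molecules in 5 cycling cells and 0 in the 54 resting ones. Dntt stood at 0.62 (0.32 to 0.93), cycling over resting, within 2-fold. In the 93 cells, with the 5 cells low in Trbc among the resting ones, Dntt stood at 1.19, Cd8a at 1.17 and Cd8b1 at 1.05, and these passed 2-fold only there.

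Ccr9 and some other T lineage genes were lower in cycling cells, but the count of their list turned on 5 cells. Ccr9 was at 247 CPM (195 to 309) in cycling and 803 (687 to 933) in resting cells, a log2 ratio of -1.69, and it passed 2-fold with the 93 cells as well, at -1.14. Themis stood at -1.37 in the 88 cells and -0.81 in the 93. Cd4 stood at -1.12 and -0.55, but the rule requires a Cd4 molecule in every cell whatever its depth, so nothing is read from it. Tox, a factor needed for the CD4 lineage, stood at -1.69 and -1.10. Cd247 stood at -1.54. Bcl2l11 was also lower in cycling cells, at -1.67. In all, 5 of 21 measured cortical thymocyte genes of the 88 cells were lower (Ccr9, Tox, Themis, Myb and Cd28) and 2 were higher (Mns1 and Id3). Of all 2392 genes compared there, 301 were lower and 242 higher. In the 93 cells 2 of 22 were lower and 3 higher, against 12.5% and 9.83% of all 2910 genes. The count thus turns on 5 cells, and no result about the list is read from it.

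Depth was set equal for shares of cells with a molecule. These shares are over the 93 cells, with the 5 cells low in Trbc among the resting ones, and 2 shallower resting cells were left out. Thinned to 2000 molecules, Ccr9 was found in 11 of 34 cycling (32.4%, 17.4 to 50.5) and 42 of 57 resting cells (73.7%, 60.3 to 84.5). Unthinned, Ccr9 was found in 61.8% and 81.4%. Themis was found in 76.5% and 75.4% of thinned cells, so its share did not follow its CPM and no order is read from it.

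In summed molecules, the alpha transcript was lower relative to beta, and the delta transcript higher, in cycling than in resting cells; shares of cells at equal depth resolved neither. Trac gave 104 molecules beside 1799 of Trbc in cycling cells, 5.78 per 100, and 163 beside 1234 in resting cells, 13.2 per 100. Under the wild-type label the 2 values were 6.47 and 22.3, and under the Saa3-/- label 5.30 and 11.0, so resting cells were higher in both pools. A single deep cell held 33 of the 48 Trac molecules of the wild-type-labelled cycling cells. The other CD3 cells had 40.0. Thinned to 2000 molecules, Trac was found in 14 of 34 cycling (41.2%, 24.6 to 59.3) and 31 of 57 resting cells (54.4%, 40.7 to 67.6), and the intervals overlap. Trdc, which lies inside the alpha locus (chr14:54142851-54148868 on GRCm38, with Trac at chr14:54220521-54224206), had 79 molecules in 26 of 34 cycling cells and 16 in 13 of 59 resting ones, a log2 ratio of 2.30 (1.55 to 3.21), at 2.32 and 2.29 in the 2 pools. 1 cycling cell held 20 of the 79, and in the 88 cells the log2 ratio of Trdc was 1.98. Thinned to 2000 molecules, Trdc was found in 9 of 34 (26.5%, 12.9 to 44.4) and 6 of 57 cells (10.5%, 3.96 to 21.5). Those intervals overlap, so the difference in share was not resolved at that depth. Trbc2 was nearly level between the classes of the 88 cells: 4412 and 4586 CPM, a log2 ratio of -0.06 (-0.17 to 0.06).

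**Figure D5:**
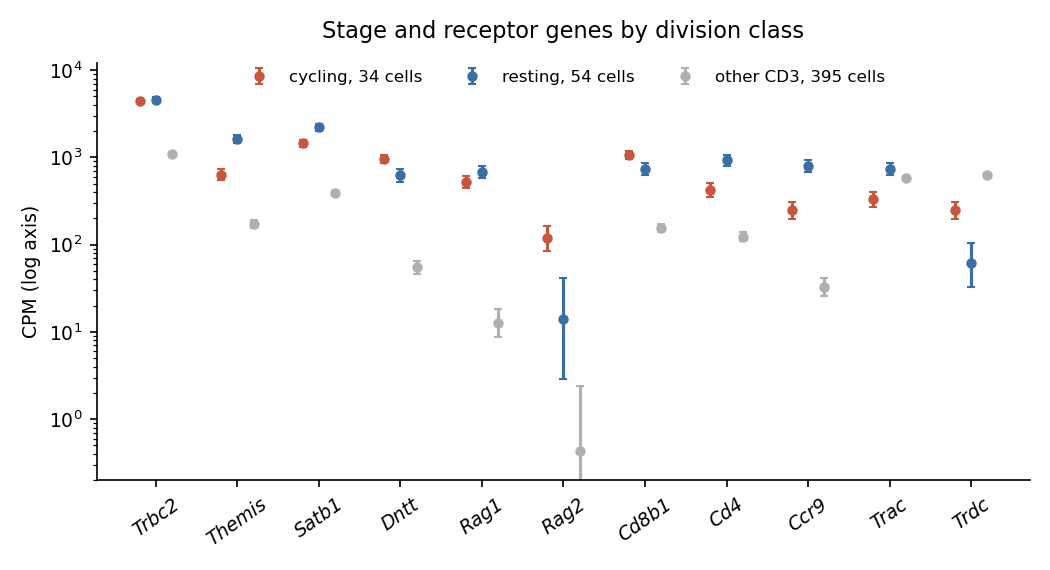
Level of 11 stage and receptor genes (vertical axis, CPM, log axis) summed over 34 cycling and 54 resting thymocyte-like cells, without the 5 cells low in Trbc, and over 395 other CD3 cells. Bars are exact 95% Poisson intervals for counting error. In these sums Ccr9, Themis and Trac sit lower in the cycling class and Trdc higher. Of Ccr9, Themis, Trac and Trdc, shares of cells at equal depth, with the 5 cells low in Trbc included, separated the classes for Ccr9 alone. Trbc2 sits near level, in cells that were chosen by a minimum of Trbc. Cd4 and the stage genes belong to the rule.

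Between the pools, the most extreme genes of the thymocyte-like cells rested on the 5 cells low in Trbc. Of 2913 genes, 208 were at least 2-fold higher under the Saa3-/- label (7.14%) and 132 lower (4.53%), with a median gene at 0.09 and no replicate to check a call. In the 88 cells the counts were 136 and 52 of 2395, and 116 of the 340 first counted were among these 188. The 10 highest of the 93 cells were Myoc, Il17b, Chil1, Omd, Sox9, Cytl1, Col27a1, Frzb, Islr and Ccdc80, connective tissue genes for the most part. A single cell held 204 of 204 Myoc, 220 of 221 Chil1 and 1195 of 1337 Cytl1 molecules. The 10 lowest were Lyz1, Ear2, Ccl6, Ccr2, Mgl2, Ccl9, Pla2g7, Gda, Cybb and Ctss, mostly genes of myeloid cells, with 934 of 937 Lyz1 and 241 of 339 Ctss molecules in 1 cell. Of these 20, Cytl1 alone passed 2-fold in the 88 cells, at 2.12 (1.37 to 3.08). Of the other 19, 18 no longer had 50 molecules there and Ctss stood at -0.07.

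The genes of the rule and the cortical list differed little between pools. In the 88 cells, Saa3-/- label over wild-type label, Rag1 stood at 0.38 (0.01 to 0.78), Dntt at 0.46 (0.14 to 0.79), Cd8a at 0.02 (-0.27 to 0.33) and Cd4 at 0.54 (0.17 to 0.93). Of 21 cortical thymocyte genes, 1 was higher, Mns1 at 1.40, and none was lower, with a median of 0.45. Themis stood at 0.64 and Ccr9 at 0.56. Of 17 S phase genes, 3 were lower (Mcm4, Mcm5 and Mcm6, at -1.08, -1.06 and -1.17), and of 18 G2 and M phase genes 2 were lower (Ccna2 at -1.15 and Kif11 at -1.09). In the 93 cells none of these 5 passed 2-fold. The deep wild-type-labelled cell among the 88 held 32755 of the 161912 molecules on its side. It held 168 molecules of Mki67, Top2a and Stmn1 but 1 stage molecule and 1 of Cd4. Its part in the ratios of cell cycle, stage and cortical genes was not tested. 3 of 4 measured fibroblast markers were higher under the Saa3-/- label in the 88 cells, Lum at 2.34, Col1a2 and Dcn at 1.17, and the whole list of 5 summed to 531 CPM under the wild-type label and 1407 under the other, with 202 of 514 molecules in 1 cell. Their part in the comparison was not tested. Trbc1 passed 2-fold, at 1.03 (0.74 to 1.34) in the 88 cells, while Trbc2 stood at -0.33 (-0.46 to -0.21). Each cell uses 1 of the 2 segments per beta chain, and their sequences are near-identical, so a split of reads between them is uncertain.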

How the data were processed

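The deposited counts are molecules per gene and cell, in 1 table for each sample tag, with 26189 genes and no normalization or subsampling. They were made by the authors with version 1.11.1 of the BD Rhapsody pipeline (GRCm38, GENCODE release 19, refined cell calls, introns counted), per the file headers. The submitters' processing notes also name R 4.3.1 and Seurat 4.3.0. Genotypes are tied to tags by table names alone. How strand and reads of near-identical genes were handled is not given in the sources used here. From the deposited tag calls, written in a later run, only the number of calls was used. The 4 macrophage culture samples were not analysed here.

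Members and other CD3 cells were gated per cell, with no clustering. Their molecules were summed by group and compared as log2 ratios of CPM with a pseudocount of 0.5 molecule, at 50 molecules or more over both groups. Cells were not used as replicates, so no test was made. Intervals are exact (Clopper-Pearson for shares, Poisson for levels, conditional binomial for ratios). A fold against 0 molecules sets that group at 3 molecules. Named genes are the 10 highest and 10 lowest of each comparison past 2-fold, without genes of the rule, unnamed gene models and receptor segments, and genes of the lists; other names were chosen after their values were seen. Members and lists were chosen with earlier results of these data known. Positions follow GENCODE release 21 on GRCm38. Depth ranged from 1729 to 39597 molecules in the members. The ratio function was tested on simulated data. Alternatives changed the gate, the cycling limit, scaling, count minimum, pseudocount and weighting. Python 3.11.15, numpy 2.4.6, pandas 2.3.3 and scipy 1.17.1 were used. Some named items and the results that need them are not reported here.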

Additional observations from a re-analysis of the deposited data

Results flagged for a closer look

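10 listed genes with at least 50 molecules had counting intervals on opposite sides of 0 in the 2 pools, and the difference between pools was not tested for any of them. For the thymocyte-like cells over the other CD3 cells, the log2 ratio under the wild-type label and then under the Saa3-/- label was 1.77 and -0.38 for Lyz2 and 1.01 and -0.95 for Csf1r, both macrophage genes. In the first of these 1 wild-type-labelled cell held 540 of 946 molecules, and in the second 36 of 64. Myh11 stood at 0.88 and -1.42, with 117 of 134 molecules in 1 wild-type-labelled cell. Vwf, an endothelial gene, stood at 4.14 and -4.26, with 10 of its 14 wild-type-labelled molecules in 1 cell.

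Some flagged genes are induced by receptor signalling or stress. They were picked for their opposite signs, so no trend of such genes is read from them. Under the wild-type label and then the Saa3-/- label, Egr1 stood at -0.72 and 0.85 and Fosb at -0.85 and 0.27. In the same order, Nr4a1 stood at -0.28 and 0.44, and Id3 at -0.72 and 0.71. In the pool labelled Saa3-/-, 1 cell held 290 of 346 Egr1 molecules and 164 of 274 Fosb molecules, against 40 of 369 for Nr4a1 and 25 of 86 for Id3. The higher values of Egr1 and Fosb there thus rested on 1 cell.

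For cycling over resting cells, Nkg7, a cytotoxic granule gene, stood at 1.55 and -4.10, with all 26 wild-type-labelled cycling molecules in 1 cell. Satb1 stood at 0.60 and -0.29, both within 2-fold.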

How the results depend on the processing

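The share of thymocyte-like cells stayed higher under the Saa3-/- label in every alternative run, with a ratio of 2.32 to 4.91. Requiring 2 molecules of Cd4 and of Cd8 gave 1.56% and 5.59%, thinning to 2000 molecules gave 1.23% and 6.02% (ratio 4.91), and CD3 cells as the denominator gave 11.0% and 25.6%. The cycling share of 36.6% became 52.7% with a limit of 2 molecules (49.3% under the Saa3-/- label) and 22.4% when thinned (20.8% there). It was 44.1% at 5 per 10000 molecules and 45.2% with 1 molecule of Mki67 and Top2a. Counts of genes past 2-fold moved with the minimum. For members over other CD3 cells the 1330 became 2160 at 20 molecules, 414 at 200 and 5085 with no minimum. For cycling over resting cells the 651 became 1536, 103 and 5432, and 382 or 305 within the Saa3-/- or wild-type label alone. Between pools the 340 became 996, 41 and 5116, and 188 in the 88 cells, an alternative chosen after seeing the data. These settings change by construction how many genes or cells enter. Median-of-ratios scaling shifted all genes by -0.10 for members over other CD3 cells and by 0.04 and -0.09 for the other comparisons. Among resting cells alone, Hmgb2 (-0.13), Mcm3 (-2.71), Pola1 (-0.59), Rrm1 (-0.48) and Top2a (-0.48) turned lower in members. In the 88 cells Egr1 (0.32) and Fosb (0.046) turned higher in cycling cells and Egr1 (-0.56) lower under the Saa3-/- label. Of the 129 named or listed genes past 2-fold for members over other CD3 cells, 1289 of 1505 alternative values lay within the main interval and 55 were no longer past 2-fold. For cycling over resting cells (74 genes) these were 549 of 606 and 35, and between pools (34 genes) 222 of 261 and 24. No paired analysis was possible because each genotype is 1 pool, and the macrophage cultures that share replicate numbers were not analysed here.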
